A study of Mus musculus with 10 samples.

Results

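The 10 genes described here, Ltf, Ngp, Camp, Lcn2, Mmp8, Mmp9, S100a8, S100a9, Chil3 and Cd177, encode granule and cytosolic proteins of maturing neutrophils. They were taken as every probe set of the array annotated with 1 gene symbol that is in this set. The rule found 11 of 45037 probe sets, 1 for each gene and 2 for Mmp9, and all 10 of these genes were among 12821 genes that passed the filter on dim values, out of 18193 with a probe set. RNA was measured on 1 array for each of 10 individual mouse fetal livers of embryonic day 14.5, on a mixed b6 and 129 background. The controls were 5 wild type livers, and the other 5 came from Zfp36l2 knockout fetuses. The labels do not say how the knockout allele was made or whether livers shared litters. The comparison asks what differs in the fetal liver without ZFP36L2, a zinc finger protein that recognises AU-rich stretches in mRNA and speeds their loss.

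Neutrophils make their granules in order as they mature. Primary granules, with myeloperoxidase and elastase, are filled in promyelocytes, and secondary granules, with lactoferrin, lipocalin 2 and cathelicidin, in myelocytes and metamyelocytes. Tertiary granules with gelatinase and the surface proteins of mature cells come last. The fetal liver is the main blood-forming organ at this age, so a whole liver holds hepatocytes, red cell precursors and myeloid cells of all stages. In RNA from a whole liver, more cells of a type and more RNA per cell cannot be told apart. Lcn2 is also made by hepatocytes as an acute phase protein, S100a8 and S100a9 also by monocytes, and Chil3 also by macrophages.

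Members of the C/EBP family of transcription factors drive the late granule genes, so the 250 bases upstream of the start sites were searched for the letters TTNNGCAA on both strands (TTGCNNAA on the printed strand where the match is on the other). Of the 9 genes that had an upstream window in the RefSeq table (build GRCm38.p6; Mmp9 had none), 5 held a match, and 9.57% of all 32536 windows of that length did. The match is a description of the letters and not a measured site. Ngp held 2 matches, and Ltf, Lcn2, Mmp8 and S100a9 held 1 each. The windows of 4 of these genes, with Camp for comparison, which holds no match, are given 5′ to 3′ with the matches in capitals.
Ltf (chr9:111019042-111019291, plus strand): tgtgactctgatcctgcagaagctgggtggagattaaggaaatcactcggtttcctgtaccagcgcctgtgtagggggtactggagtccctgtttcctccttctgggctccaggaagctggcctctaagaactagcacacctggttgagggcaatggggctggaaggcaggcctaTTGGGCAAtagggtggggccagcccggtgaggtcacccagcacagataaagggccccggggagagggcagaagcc
Ngp (chr9:110419558-110419807, plus strand): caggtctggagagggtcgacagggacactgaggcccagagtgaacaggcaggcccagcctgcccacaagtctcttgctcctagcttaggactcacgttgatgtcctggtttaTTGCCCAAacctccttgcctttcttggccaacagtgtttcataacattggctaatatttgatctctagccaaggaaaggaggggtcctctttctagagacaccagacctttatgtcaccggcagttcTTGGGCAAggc
Lcn2 (chr2:32387740-32387989, minus strand): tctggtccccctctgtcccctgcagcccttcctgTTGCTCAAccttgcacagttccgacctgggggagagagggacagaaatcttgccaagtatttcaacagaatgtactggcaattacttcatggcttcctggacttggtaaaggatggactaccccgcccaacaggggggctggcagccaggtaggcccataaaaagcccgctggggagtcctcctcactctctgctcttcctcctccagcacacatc
S100a9 (chr3:90695722-90695971, minus strand): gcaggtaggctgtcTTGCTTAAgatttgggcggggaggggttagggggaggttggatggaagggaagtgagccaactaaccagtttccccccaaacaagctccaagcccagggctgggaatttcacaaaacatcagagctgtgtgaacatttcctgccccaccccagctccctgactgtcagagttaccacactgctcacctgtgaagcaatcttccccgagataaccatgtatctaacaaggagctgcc
Camp (chr9:109849457-109849706, minus strand): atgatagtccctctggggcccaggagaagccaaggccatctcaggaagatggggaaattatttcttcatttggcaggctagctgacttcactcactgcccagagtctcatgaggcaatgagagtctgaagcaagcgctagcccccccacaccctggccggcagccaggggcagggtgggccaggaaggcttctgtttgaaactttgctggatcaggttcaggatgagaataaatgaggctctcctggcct
The Ltf match begins 75 bases before the start site, those of Ngp 138 and 11 bases, that of Lcn2 216 bases and that of S100a9 236 bases before it. S100a8 and S100a9 are neighbours on chromosome 3 with 0 other protein-coding genes between them in the RefSeq table. Camp, Ngp and Ltf lie on chromosome 9, with 8 protein-coding genes between Camp and Ngp and 20 between Ngp and Ltf.

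Ltf, Ngp, Camp and Lcn2, genes of the secondary granules, were well measured in every liver and differed widely among the wild type livers. All values are quantile-normalized intensities, and replicates are listed from 1 to 5. Ltf encodes lactoferrin, the iron-binding protein that defines the secondary granule. It read 171, 528, 175, 131 and 1031 in the wild type livers and 994, 702, 1220.4, 989.5 and 1497 in the knockout livers. Wild type replicates 1, 3 and 4 were low, replicate 2 was intermediate, and replicate 5 lay within the knockout range. The means were 407 ± 384 and 1080.4 ± 297 (SD, n = 5), a log2 difference of 1.84 ± 0.43, or 3.59-fold (SE; limma adjusted p = 0.0972).

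Ngp encodes neutrophilic granule protein, a relative of the cathelicidins. It read 422, 1523, 592, 365 and 2999.8 in wild type and 2350.3, 1793, 3569.9, 2411 and 3507 in knockout livers. Wild type replicate 5 again stood within the knockout range, and the other 4 wild type livers lay below it. The log2 difference was 1.65 ± 0.44, or 3.14-fold (limma adjusted p = 0.151). Camp encodes the mouse cathelicidin, an antimicrobial peptide precursor. It read 245, 1020.3, 417, 274 and 1557 in wild type and 1033, 815, 1537, 1249 and 1575 in knockout livers. Here wild type replicates 2 and 5 both exceeded the lowest knockout liver, and the log2 difference was 1.17 ± 0.40, or 2.25-fold (limma adjusted p = 0.304).

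Lcn2 encodes lipocalin 2, which binds bacterial siderophores. It read 193, 448, 187, 162 and 988 in wild type and 804, 676, 1268, 779 and 1345 in knockout livers. Only wild type replicate 5 reached the knockout range. The log2 difference was 1.62 ± 0.39, or 3.08-fold (limma adjusted p = 0.103).

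S100a8 and S100a9 encode the 2 subunits of calprotectin, the main cytosolic protein of neutrophils. S100a9 read 2231, 5949, 2835, 1684 and 8471 in wild type and 6932, 4492, 8320.4, 6391 and 8242 in knockout livers. S100a8 read 2038, 5804, 3092, 1869 and 8215 in wild type and 5711, 4009.9, 7323, 5618 and 8006 in knockout livers. For both genes wild type replicate 5 was above the highest knockout liver and replicate 2 was inside the knockout range. The log2 differences were 0.93 ± 0.34 for S100a9 and 0.75 ± 0.33 for S100a8 (limma adjusted p = 0.337 and 0.468).

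The other genes of the group, Mmp8, Cd177, Mmp9 and Chil3, were dim. A floor of 16 was set on the intensities, and values at or under it have no order. Where livers were there, a log2 difference takes them at 16, depends on the floor and is not read as a fold. Mmp8 encodes neutrophil collagenase. It read 9.66, 32.5, 22.3, 46.2 and 69.1 in wild type and 52.6, 54.5, 127, 47.7 and 199 in knockout livers. Knockout replicates 3 and 5 stood above all other livers, and 1 wild type liver was under the floor. The log2 difference was 1.31 ± 0.44 (limma adjusted p = 0.292). Cd177, a surface glycoprotein of neutrophils, lay between 20.6 and 55.1 in knockout livers and was at most 28.7 in wild type livers, of which 3 were under the floor (limma adjusted p = 0.493).

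Mmp9 encodes gelatinase B, the tertiary granule enzyme. Its brighter probe set ranged from -20.98 to 25.4 in wild type and from 11.8 to 47.2 in knockout livers, with 3 wild type livers and 1 knockout liver under the floor (limma adjusted p = 0.330). The other Mmp9 probe set was under the floor in all 10 livers and did not pass the filter. Before the floor its values did not overlap, at -42.6 to -22.6 in wild type and -11.00 to 14.97 in knockout livers, but they lie at the level of the background. Mmp8, Mmp9 and Cd177 were thus dim or near the floor, while Ltf, Ngp, Camp, Lcn2, S100a8 and S100a9 were bright. Intensities of different probe sets do not rank amounts of RNA, so this contrast was not read as one of stage.

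Chil3, which encodes the chitinase-like protein Ym1, was dim. It read 22.5, 15.9, 28.7, 1.31 and 99.8 in wild type and 16.6, 12.4, 13.6, 13.9 and 23.3 in knockout livers. Wild type replicate 5 alone was clearly above the floor, and 5 of the 10 livers were under it. Its log2 difference of -0.68 ± 0.41 was the only negative one of the 10 (limma adjusted p = 0.641), and it was -0.21 without wild type replicate 5 (limma adjusted p = 0.845). A probe set shared by Chil3 and Chil4 was outside the rule and was not used here.

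**Figure D1:**
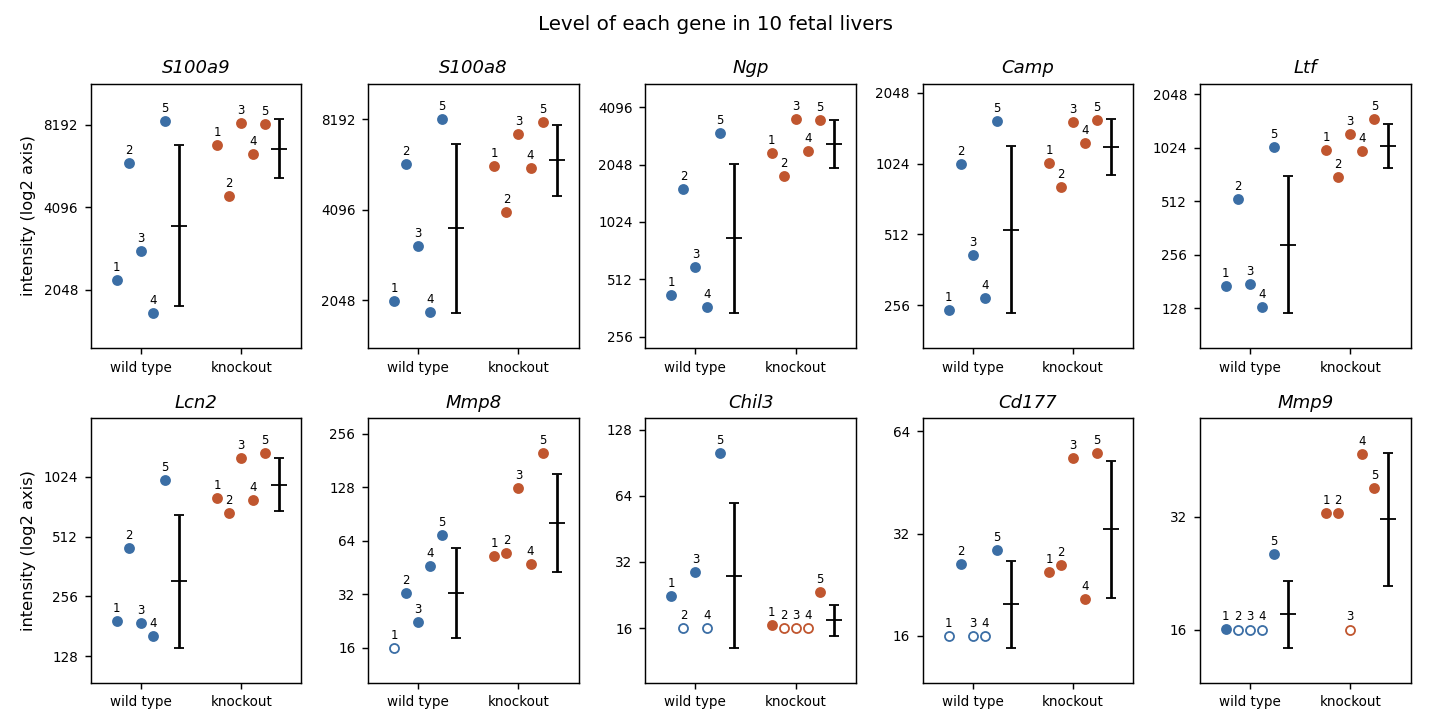
Normalized intensity on a log2 axis of each gene's brighter probe set in 5 wild type (blue) and 5 knockout (orange) livers, with the replicate number at each point, open points for livers set to the floor of 16, and bars for the mean ± SD of the log2 values (n = 5). Wild type replicates 1, 3 and 4 are the lowest livers for S100a9, S100a8, Ngp, Camp, Ltf and Lcn2, and wild type replicate 5 lies within the knockout range for Ngp, Camp, Ltf and Lcn2 and above it for S100a9 and S100a8.

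Across genotypes, 0 of the 10 genes passed limma's adjusted threshold of 0.05, against 0.211% of 27022 tested probe sets, or 0.107% counting only those higher in the knockout. At an unadjusted p under 0.05 limma gave 9 of the 10, all but Chil3 and all with positive differences, against 9.75% of all tested probe sets, or 5.01% counting only those higher in the knockout. Over the alternative settings that count ran from 5 to 9. The 6 bright genes among them varied together over the same livers, so the 9 are not independent results. With a two-sided exact permutation test of 5 against 5 livers, 4 of the 10 had p under 0.05, against 9.29% of tested probe sets. These were Ltf and Lcn2 (exact permutation p = 0.0317 for each) and Ngp and Mmp9 (0.0476 for each), where 0.00794 is the smallest this design can give. Over all probe sets 0 passed the adjusted permutation test, and the adjusted p of Ltf and Lcn2 was 0.489. With that smallest p and only 2509 probe sets under 0.05, no gene could pass after adjustment. The 0 therefore says nothing about the 10 genes. The median log2 difference of the 10 genes was 1.05, beside 0.00 over all tested genes. The genotypes overlapped for every one of the 10 brighter probe sets, while 2.27% of tested probe sets showed no overlap, and 1.1% showed none with the knockout higher.

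Leaving out wild type replicate 5 changed the outcome for 4 genes. Without that liver Ltf (log2 2.30, limma adjusted p = 0.00280), Lcn2 (2.05, 0.00227), Ngp (2.11, 0.00664) and Camp (1.55, 0.0407) rose in the knockout, and 168 probe sets passed in place of 57. Leaving out any other single liver gave 0 calls among the 10 genes. Wild type replicate 5 was the highest wild type liver for these 4 genes. Leaving it out therefore raises their difference and narrows the wild type spread. Such calls are no separate support, and the same limit holds for the counts without that liver given for the lists below.

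The spread among wild type livers was wider than that among knockout livers for each of the 6 genes above the floor in every liver. The highest wild type liver exceeded the lowest 8.22-fold for Ngp, 7.89-fold for Ltf, 6.35-fold for Camp, 6.08-fold for Lcn2, 5.03-fold for S100a9 and 4.40-fold for S100a8. In knockout livers the same ratio lay between 1.85 (S100a9) and 2.13 (Ltf). The SD of log2 values had a median over these 6 genes of 1.15 in wild type and 0.40 in knockout livers, beside 0.31 and 0.29 over all tested probe sets. For Ngp only 0.148% of tested probe sets had as large a wild type SD, and for Ltf 0.167%. In knockout livers 31.9% and 34.0% of probe sets had an SD as large as those of Ngp and Ltf. Over all tested probe sets 55.2% had the larger SD in wild type. Whether the spread itself differs between genotypes was not tested. Mmp8, Cd177 and Mmp9 had the larger log2 SD in knockout livers (0.92 against 0.83, 0.67 against 0.43 and 0.59 against 0.30). Wild type livers set to the floor, 1 for Mmp8 and 3 each for Cd177 and Mmp9, have no spread among themselves.

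**Figure D2:**
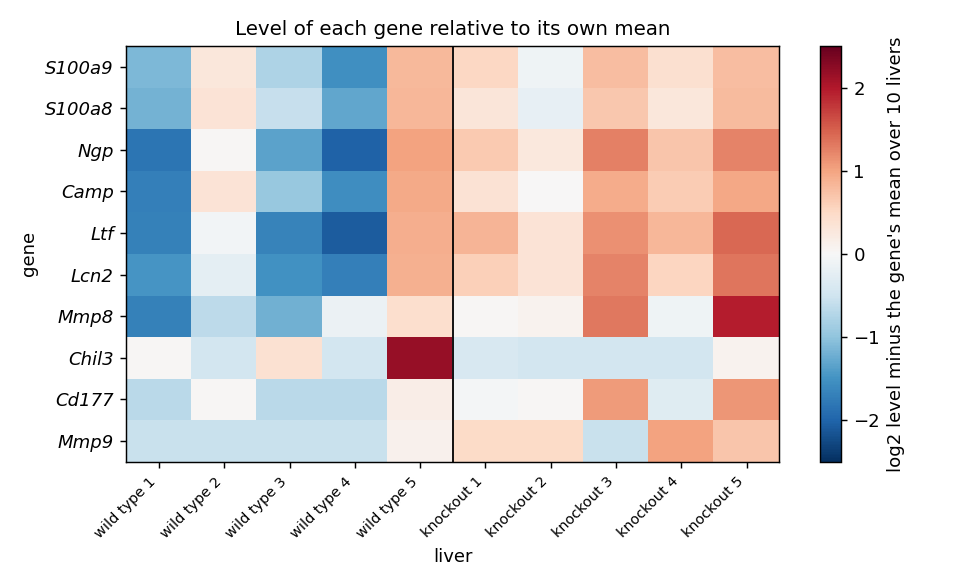
Log2 intensity of each gene (rows) in each liver (columns) minus the gene's mean over 10 livers, red for higher and blue for lower, with values under 16 set to 16. Rows S100a9 to Lcn2 are lowest in wild type replicates 1, 3 and 4 and higher in wild type replicate 5 and knockout replicates 3 and 5, whereas Chil3 is high in wild type replicate 5 alone.

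The 6 bright genes varied together from liver to liver. Over their 15 pairs Pearson's r of log2 values across 10 livers ran from 0.928 to 0.992, with a median of 0.981, and with each genotype centred on its own mean from 0.947 to 0.990. Set against S100a9, the gene with the highest mean log2 value, r was 0.989 for S100a8, 0.983 for Camp, 0.981 for Ngp, 0.966 for Ltf and 0.952 for Lcn2. Spearman's rho was 0.952, 0.939, 0.939, 0.939 and 0.927 in the same order. The permutation p of r adjusted over the 9 relations tested was 0.000180 for S100a8, Camp and Ngp, 0.000315 for Ltf and 0.000684 for Lcn2, and that of rho was at most 0.000468 for these 5. Without wild type replicates 1 and 4, the livers farthest from the median of S100a9, r was 0.917 to 0.980 (exact permutation, adjusted p at most 0.0172). Genes of 1 liver share its array and its RNA, so these relations are not independent of each other.

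The dim genes followed less closely. Cd177 had r = 0.791 (rho 0.841; adjusted permutation p = 0.00150 and 0.00579) and kept 0.684 with genotypes centred (exact permutation over orders within genotype, adjusted p = 0.00875) and 0.733 without the same 2 livers. Mmp8 had r = 0.686 (rho 0.794; adjusted permutation p = 0.0282 and 0.00972), which fell to 0.505 with genotypes centred (exact permutation, adjusted p = 0.174). Mmp9 (r = 0.525, rho 0.356) and Chil3 (r = 0.214, rho 0.252) did not pass (adjusted permutation p of r = 0.127 and 0.657, and of rho = 0.347 and 0.482). With genotypes centred, r was 0.628 for Chil3 and 0.201 for Mmp9 (exact permutation, adjusted p = 0.174 and 0.514). Without the 2 livers r was 0.764 for Mmp8, 0.288 for Mmp9 and 0.158 for Chil3. Values at the floor in 1 to 5 livers of each of these 4 genes weaken what r can show. Between Mmp8 and Cd177 themselves r was 0.896, and 0.836 with genotypes centred.

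**Figure D3:**
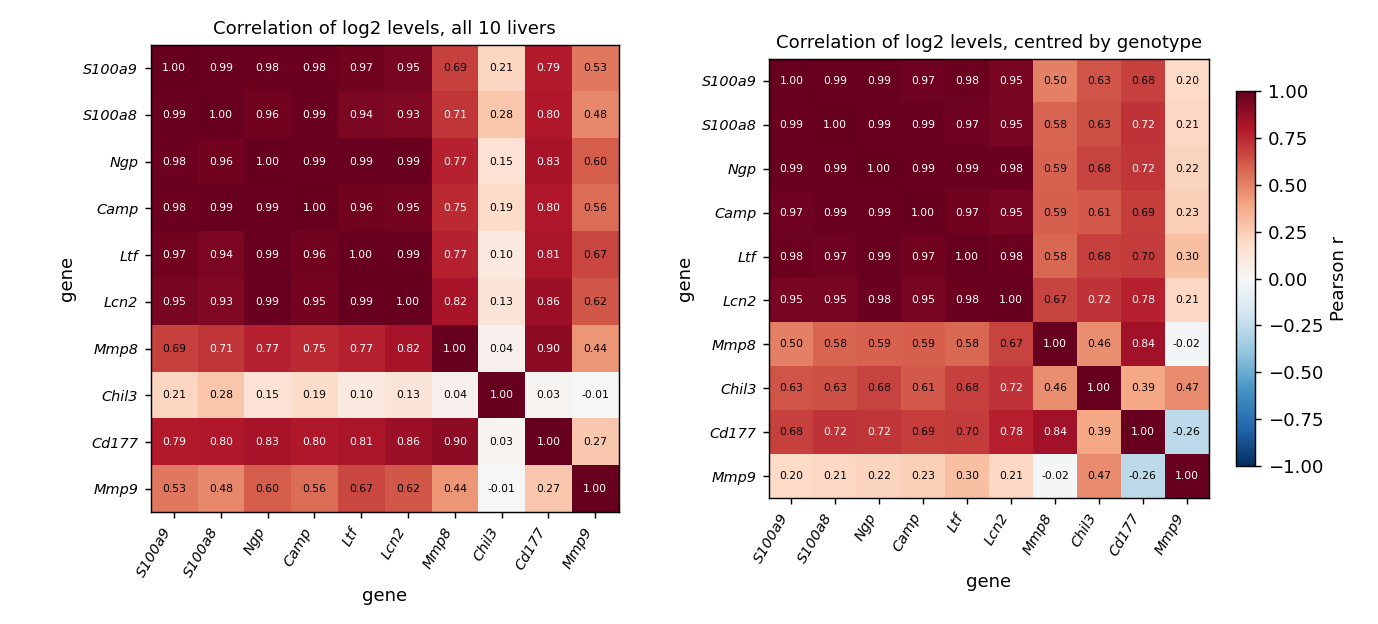
Pearson's r of log2 intensities for each pair of genes over 10 livers (left) and with each genotype centred on its own mean (right). The 6 genes from S100a9 to Lcn2 form a block at 0.928 or above on the left and 0.947 or above on the right, while pairs with Chil3 run from -0.01 to 0.28 on the left and from 0.39 to 0.72 on the right.

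The embryonic globins, made by primitive red cells and lost as the fetus ages, also varied between livers of 1 genotype. They were examined after the values above had been seen. In wild type replicates 1 to 5 Hbb-bh1 read 1969, 1401, 896, 1526 and 678, and Hba-x read 2330.3, 2765, 1842, 1837 and 753. Hbb-y read 3507 in wild type replicate 5 and 12127 to 13061 in the other wild type livers. Wild type replicate 5, with the highest levels of the 6 bright genes in its genotype, thus had the lowest level there of all 3 embryonic globins. In knockout replicates 1 to 5 Hbb-bh1 read 819, 2316, 738, 2025 and 441, and Hba-x read 2356, 6684, 1658, 2922 and 1195. Knockout replicate 2, the lowest knockout liver for all 6 bright genes, had the highest embryonic globins, and knockout replicate 5, highest for Camp, Ltf, Lcn2 and S100a8, had the lowest. Wild type replicate 3 had the second lowest mean log2 level of the 3 embryonic globins in its genotype and low levels of the 6 bright genes. The relation between the embryonic globins and these genes was not tested, nor was a difference in stage between livers.

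Between genotypes the embryonic globins did not pass (limma adjusted p = 0.957 for Hbb-y, 0.916 for Hbb-bh1 and 0.735 for Hba-x). With their mean log2 level as a covariate, a setting chosen after seeing the data, limma called 3 of the 10 genes, which rose in the knockout. These were Lcn2 (1.73 ± 0.28, adjusted p = 0.0109), Ltf (1.95 ± 0.33, adjusted p = 0.0131) and Ngp (1.76 ± 0.34, adjusted p = 0.0264). Camp, S100a9 and Mmp8 had log2 differences of 1.26, 1.02 and 1.43 there (limma adjusted p = 0.0978, 0.105 and 0.0666). That fit called 187 of 27022 probe sets. Wild type replicate 5, high for these genes, had the lowest embryonic globins of its genotype, and the setting was chosen after seeing the data. Calls with the covariate, here and in the lists below, are therefore no separate support.

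**Figure D4:**
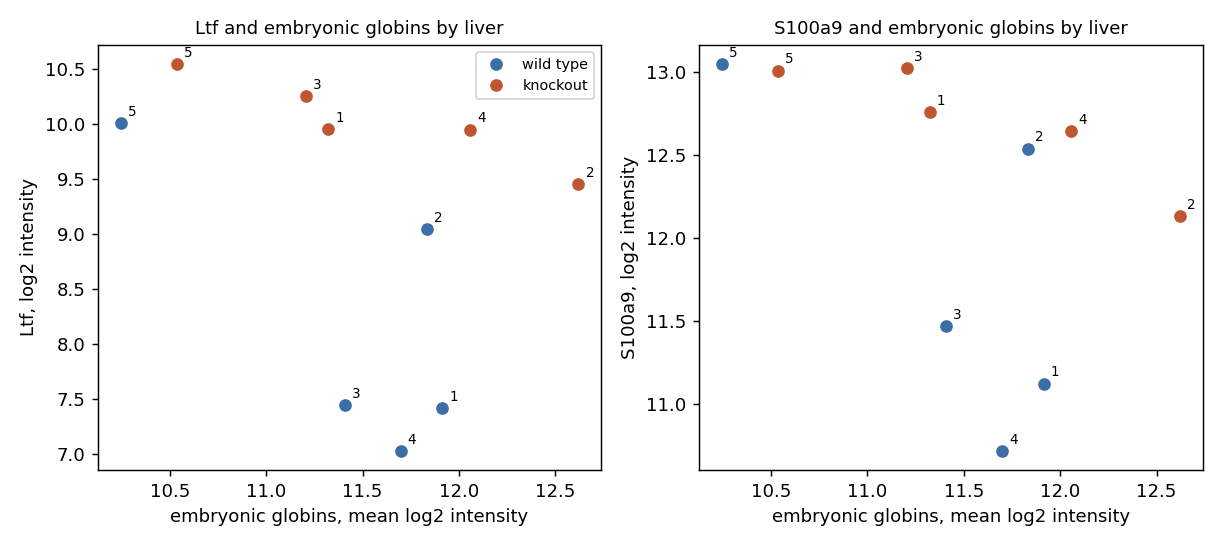
Log2 intensity of Ltf (left) and S100a9 (right) against the mean log2 intensity of Hbb-y, Hbb-bh1 and Hba-x, 1 point per liver with its replicate number, wild type in blue and knockout in orange. Wild type replicate 5 and knockout replicate 5 have the lowest embryonic globins of their genotype, at 10.2 and 10.5, and high Ltf and S100a9.

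Other secondary and tertiary granule and mature neutrophil genes were mostly higher in the knockout livers, without passing the test. Of 32 such genes 24 had a probe set and 20 were tested. Of these, 19 had positive differences, with a median of 0.87, but 0 were called by limma and 12 had an unadjusted p under 0.05. Beside this list and those below, 50.05% of all tested genes had a positive difference. An unadjusted limma p under 0.05 was seen for 9.75% of all tested probe sets. Stfa2l1 and Stfa3, cystatin-like inhibitors abundant in mouse neutrophils, had means of 621 ± 552 and 413 ± 360 for the wild type and 1452 ± 564 and 956 ± 351 for the knockout (log2 1.56 and 1.57; limma adjusted p = 0.173 and 0.182). Anxa1, a phospholipid-binding protein of the tertiary granules, averaged 496 ± 296 and 1189.9 ± 319.7 (1.41; limma adjusted p = 0.0677). Cyba, a subunit of the phagocyte oxidase, averaged 456 ± 65.5 and 559 ± 24.5 (0.30; limma adjusted p = 0.199). Without wild type replicate 5, 8 of these genes were called, and with the embryonic globin covariate 9 were. No other single liver left out gave a call among them.

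The primary granule genes, filled in earlier cells, were mixed: 5 of 8 had positive differences, and 3 had an unadjusted limma p under 0.05. Mpo, encoding myeloperoxidase, had means of 1597 ± 683 for the wild type and 1313 ± 376 for the knockout, and Elane, encoding neutrophil elastase, of 378 ± 168 and 344 ± 118 (log2 -0.24 and -0.11; limma adjusted p = 0.817 and 0.947). Prtn3, encoding proteinase 3, averaged 639 ± 241 and 780.4 ± 243 (0.30; limma adjusted p = 0.748). Ctsc, the protease that activates the granule serine proteases, rose from 708 ± 139 to 1128 ± 103 (0.69 ± 0.12; limma adjusted p = 0.0298) and was the only one of 8 tested genes to pass. Its call was lost when wild type replicate 1, 2 or 3, or any 1 of the 5 knockout livers, was left out. The median of the 8 was 0.40, and it was 0.24 without wild type replicate 1 and 0.25 without replicate 4. Without wild type replicate 5, 7 of the 8 were positive with a median of 0.59, and without knockout replicate 2 also 7. The difference between the primary and the secondary granule genes was not tested.

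Transcription factors of granulocytes were measured by 7 genes, of which 6 had positive differences and 0 were called by limma (4 at an unadjusted p under 0.05). Without wild type replicate 5, with the globin covariate, with robust eBayes or with the replicate block, 1 was called, Cebpb. Cebpb had means of 167 ± 45.8 for the wild type and 264 ± 22.8 for the knockout (log2 0.69; limma adjusted p = 0.0736). Cebpa, needed to form granulocyte precursors, averaged 244 ± 33.1 and 261 ± 27.01 (0.10; adjusted p = 0.835). Irf8 and Runx1 had differences of 0.49 and 0.12 (limma adjusted p = 0.407 and 0.952). Cebpe, the factor most tied to secondary granules, had no probe set with a single symbol in the annotation used here.

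Of 17 tested surface receptors and integrins 15 had positive differences, with a median of 0.29, and 0 were called by limma (4 at an unadjusted p under 0.05). Itgb2, the beta chain of the leukocyte integrins, averaged 191 ± 77.6 and 308 ± 65.4 (log2 0.74; limma adjusted p = 0.198). Fcgr3 had a difference of 0.56 and the cytokine receptor chains Csf2rb and Csf2ra of 1.03 and 0.43 (limma adjusted p = 0.130, 0.129 and 0.521). Without wild type replicate 5, or with the globin covariate, 2 receptors were called. Csf3r, the receptor for the neutrophil growth factor G-CSF, was named after its values were seen: it averaged 52.9 and 38.1 (-0.37; limma adjusted p = 0.817), against the direction of the granule genes. Cxcr2, the chemokine receptor of mature neutrophils, was under the filter.

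Among growth factors and attracting ligands only 4 of 12 passed the filter, and 0 were called by limma (1 at an unadjusted p under 0.05). Cxcl1, a chemokine that attracts neutrophils, averaged 51.5 ± 18.7 and 126 ± 22.5 (log2 1.37; limma adjusted p = 0.0584). It passed under 8 of 21 alternative settings, 1 of which leaves out wild type replicate 5. Cxcl12, which retains neutrophils in blood-forming tissue, averaged 532 ± 39.1 and 483 ± 40.7 (-0.14; limma adjusted p = 0.592). Il1a and Il1b were dim, with differences of 0.35 and 0.34 (limma adjusted p = 0.799 and 0.821), and Csf3 was under the floor in all 10 livers.

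The genes outside the group whose log2 levels were most like the mean standardized level of the 10 genes over the 10 livers were Stfa2l1 (r = 0.989), Stfa3 (0.978), Cd53 (0.974), Olfm4 (0.971), Cybb (0.970), Anxa1 (0.964), Mcemp1 (0.959), Arhgdib (0.959), Mpeg1 (0.956) and Lyz2 (0.955). They were picked for this likeness, so the values are a description. Olfm4 encodes a secondary granule protein, Cybb the catalytic subunit of the phagocyte oxidase, and Mpeg1 a pore-forming protein of macrophages. Cd53 and Arhgdib are expressed by white blood cells in general.

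Markers of other cells in the liver moved with the granule genes in part. The summed level of 17 monocyte and macrophage markers was 3471 to 9174 in wild type and 7592 to 9630.5 in knockout livers, with wild type replicate 5 the highest wild type liver. Lyz1 and Lyz2 make up a large part of this sum, and Lyz2 was among the genes most like the group. The sum is therefore no measure of macrophages alone. Of 15 tested markers 14 had positive differences and 0 were called by limma (8 at an unadjusted p under 0.05). Without wild type replicate 5, 4 were called, Lyz1, Lyz2, Csf1r and C1qc. With the embryonic globin covariate 2 were called, and with the replicate block also 2, in both cases Lyz1 and Lyz2. These 2 genes ranked the wild type livers in the same order, and whether their probe sets read separate RNAs was not tested. Lyz1 and Lyz2 had means of 1353 and 1019.6 for the wild type and 2754 and 2162 for the knockout, with wild type replicate 5 at 2772 and 2185 (limma adjusted p = 0.103 and 0.0955). Csf1r and Marco had differences of 0.44 and 0.40 (limma adjusted p = 0.237 and 0.679). Cd163 and Vsig4 were under the filter. The part of monocytes or macrophages in the S100a8, S100a9 and Chil3 values was not tested.

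Acute phase genes of hepatocytes summed to 14202 to 24826 in wild type and 19723 to 36538 in knockout livers, again with replicate 5 highest in each genotype. All 10 tested had positive differences, with a median of 0.54 and 0 called by limma (8 at an unadjusted p under 0.05), such as the fibrinogen genes Fga, Fgb and Fgg (0.57, 0.51 and 0.44; limma adjusted p = 0.244, 0.198 and 0.190) and Hpx (0.49; 0.210). Without wild type replicate 5, 5 of the 10 were called, with the covariate 6 and with the replicate block 7. Orm1 was under the floor in every liver, and Orm2, Saa1 and Saa2 were under the filter. The part of hepatocytes in the Lcn2 values was not tested.

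Hepatocyte markers had a median difference of -0.0029 over 8 genes and summed to 64023 to 72225 in wild type and 61623 to 73543 in knockout livers. These values say little about equal levels, since Afp, Alb and Ttr ranked among the 8 brightest probe sets of every array and quantile normalization gave Afp only 3 different values over the 10 livers. Afp, Alb, Ttr and Apoa1 were bright in every liver and so were the erythroid markers Slc4a1, Tfrc, Hemgn and Klf1. The 7 erythroid markers summed to 28226 to 36781 and 27762 to 31984, with a median of -0.16 and 0 called by limma (4 at an unadjusted p under 0.05). Of 6 tested eosinophil, mast cell and basophil markers 5 had positive differences, with a median of 0.71. At an unadjusted limma p under 0.05 there were 3, and 1 was called. This was Epx, the eosinophil peroxidase, which rose (limma adjusted p = 0.0285), from a mean of 32.2 with 2 livers under the floor to 158. Its call was lost on leaving out replicate 1, 3 or 4 of the wild type, and likewise for replicate 1, 3, 4 or 5 of the knockout. Prg2, another eosinophil granule protein, had a difference of 0.94 (limma adjusted p = 0.106), and Mcpt8 and Siglecf were dim.

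Megakaryocyte markers went the other way, with 7 of 7 negative, a median of -1.18 and 4 called, Gp5, Pf4, Ppbp and Itga2b (log2 -1.59, -1.39, -1.38 and -0.83; limma adjusted p = 0.0240, 0.000107, 0.000146 and 0.0359). Pf4 and Ppbp were called in every fit with 1 liver left out, while the Gp5 call was lost in 5 of these 10 fits and that of Itga2b in 8. Their sum was 3591 to 5217 in wild type and 1434 to 2417 in knockout livers, with no overlap and no separate place for wild type replicate 5, at 4225. B-lymphoid markers had differences of 0.31 for Igll1, 0.12 for Cd79b, 0.65 for Vpreb1 and 0.80 for Rag1 (limma adjusted p = 0.743, 0.952, 0.720 and 0.414). Vpreb1 and Rag1 were dim, with 2 and 3 livers under the floor. Of the T and NK cell markers only Nkg7 passed the filter, at means of 20.7 and 19.8. The knockout itself was seen in the arrays: the brightest Zfp36l2 probe set read 389 to 596 in wild type and 82.3 to 109 in knockout livers. Array medians before normalization ran from 19.5 to 25.01, and each array correlated with the remaining ones at 0.953 to 0.959 on average.

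**Figure D5:**
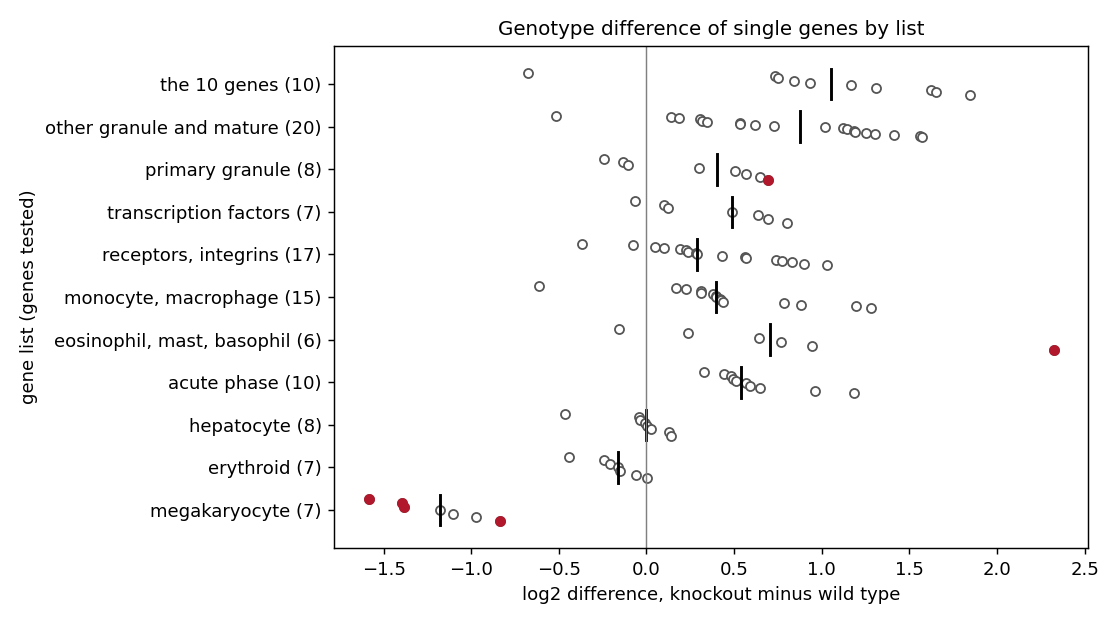
Log2 difference, knockout minus wild type, of each tested gene by list, with red points for genes called by limma, open points for the rest and a bar at the list's median. The 10 genes have a median of 1.05 with none called, the primary granule list 0.40, hepatocyte markers -0.0029 and megakaryocyte markers -1.18.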

How the data were processed

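Biotin-labelled cRNA was made from 1 µg of total RNA per liver with an Affymetrix one-cycle kit, per the labels' protocols. The deposited values are linear intensities, 1 for each probe set of an array, and 21.5% of them are at or below 0. For the authors' software and scaling, "not given in the sources used here" applies. Intensities were quantile-normalized, set to at least 16, and put on the log2 scale. The floor differs from an earlier analysis of these data, whose floor near 0 spread dim values over many log2 units. 43.1% of values lay at or under 16, and 35.6% of tested probe sets had such a value in at least 1 liver. Probe sets under the 40th percentile of mean log2 value were left out. Knockout was compared with wild type by limma 3.58.1 in R 4.3.3 (eBayes with trend, genotype only, two-sided, Benjamini-Hochberg over 27022 probe sets, threshold 0.05, "called" where passed). Each gene's brightest probe set, by mean log2 value over the 10 livers, stood for it. Permutation tests used scipy 1.17.1, with 100000 resamples for correlations. Of the probe sets 34945 had 1 gene symbol, 932 several and 9160 none. The genes, the 14 lists and the tests were chosen with earlier results of these data known. Named genes of each other list were up to 4 called genes with the largest difference, filled to 4 with those of the highest mean; genes outside this rule are said to be so or are given for their absence, and the 10 genes most like the group were taken by r. The fit was tested on simulated data. The number of livers limits the precision.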

Additional observations from a re-analysis of the deposited data

Results flagged for a closer look

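Dixon's ratio was taken for the log2 values of the 10 genes and the other named genes, 118 groups of 5 livers, where chance gives about 1 in 20, or 5.9. It set 8 values apart from the rest of their genotype. Mmp9 stood high in wild type replicate 5 (4.67, nearest 4.01), where 3 of the other livers were at the floor. Chil3 stood high in knockout replicate 5 (4.54, nearest 4.05), likewise with 3 livers at the floor. Fga was high in wild type replicate 5 (12.66, nearest 11.87) and in knockout replicate 5 (13.09, nearest 12.42), the livers with the lowest embryonic globins of their genotype. Mcpt8 was high in wild type replicate 5 (5.77, nearest 4.46), with 2 livers at the floor. In knockout replicate 2, Lyz1 (10.83, nearest 11.47), Lyz2 (10.50, nearest 11.11) and Itgb2 (7.62, nearest 8.30) were low, and this liver had the lowest S100a9, S100a8, Ngp, Camp, Ltf and Lcn2 of the knockout livers. S100a9, S100a8, Ngp, Camp, Ltf and Lcn2 themselves were not set apart by this ratio in either genotype.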

How the results depend on the processing

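The 21 alternatives covered normalization, floor, offset, filter, variance prior, probe set rule, the replicate block, each liver left out and, added after seeing the data, an embryonic globin covariate. No gene of the 10 changed direction. The number of them called was 0 except with the replicate block (2), with the covariate (3) and without single livers (0 to 4, with 4 when wild type replicate 5 was left out). At an unadjusted p under 0.05 the main limma fit gave 9 of them. The count was 5 without the filter, 7 without trend and 6 with robust eBayes, a floor of 32 or the lowest positive floor. Ltf ran from 1.55 to 2.30 over leave-one-out fits, Ngp from 1.35 to 2.11, Camp from 0.88 to 1.55 Lcn2 from 1.40 to 2.05 and Chil3 from -0.87 to -0.21. Called with the replicate block were Ltf at 1.84 and Lcn2 at 1.62 (limma adjusted p = 0.0301 and 0.0243), and with the covariate Ltf at 1.95, Ngp at 1.76 and Lcn2 at 1.73. The labels do not say what a replicate number marks, and the numbers were not taken as pairs: deviations of same-numbered livers correlated at 0.0285 to 0.130, all 5 above 0, and 3 of 5 wild type and 4 of 5 knockout livers correlated best with their own number. Probe sets called over the whole array were 57, and 94 with median scaling, 11 with the lowest positive floor, 12 with a floor of 32, 4 without the filter, 9 without trend, 101 with robust eBayes, 26 with the mean of a gene's probe sets (of 10916 genes, where 9 of the 10 were tested), 179 with the replicate block, 187 with the covariate and 13 to 168 without single livers. The cause of these changes was not tested. Of 27 repeated correlations with S100a9, 26 kept their direction and side of the threshold and that of Mmp8 was lost when genotypes were centred (r = 0.505). Mmp9 and Cd177 reached 6.42 and 6.37 with the lowest positive floor, a value set by the floor.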
